A study of Anolis carolinensis with 142 samples.

Results

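The genes described here are those of the green anole whose position in the deposited count table is on linkage group a, c, d, f, g or h, the lettered groups other than b. They were chosen by position alone and numbered 332 of the 26479 genes of the table. Linkage group c held 156 of them, f held 134 and a held 33, while h, d and g held 4, 3 and 2. Genes on chromosomes 1 to 6 (13514 genes) served for comparison, and linkage group b (63 genes) for the ratio between the sexes and in places for gene structure.

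Lizards, like birds, carry a few large chromosomes and many small ones, the microchromosomes. In birds, where they are best studied, microchromosomes tend to be dense in genes, with short introns. In the green anole chromosomes 1 to 6 are the large ones and linkage group b is the X chromosome, of which females carry a pair and males a single copy, with dosage compensation of its genes in males reported. The other lettered groups are autosomal microchromosomes as far as they were assembled, and many genes of the table sit on scaffolds with no chromosome.

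RNA was sequenced from 24 wild-caught adult anoles (*Anolis carolinensis*, labelled WT), 12 males and 12 females taken in the breeding season, 1 library per tissue and animal. ALAN animals (artificial light at night, as the series title has it) and Midnight animals were dissected in the same hours of the night, both under a red torch, and Midday animals soon after noon, with 4 animals of each sex in each treatment. Brain, eye and liver gave 24 libraries each, dorsal and ventral skin 23 each, and testes and ovary 12 each, 142 in all. Each animal had a single treatment, and the brain samples included the pineal gland.

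Total counts ran from 10257388 to 30952365 per library. Libraries fell into 2 classes by the share of even numbers among counts of 1 to 20, 58.8% to 72.6% in 100 libraries and 40.5% to 44.4% in the other 42. All ALAN libraries of liver and testes, and no others of those tissues, were of the low-share class, so class and ALAN cannot be told apart there. In eye 1 of 8 ALAN, 7 of 8 Midnight and 7 of 8 Midday libraries were of the low-share class, and in ventral skin 5 of 8 ALAN, 0 of 8 Midnight and 1 of 7 Midday libraries were. In dorsal skin 0 of 7 ALAN, 0 of 8 Midnight and 6 of 8 Midday libraries were of that class, in ovary 3 of 4 ALAN, 0 of 4 Midnight and 0 of 4 Midday libraries, and in brain none of the 24. There were 15 libraries that stood apart from their tissue in correlation. As the samples are bulk tissue, fewer cells of a type and less RNA per cell cannot be told apart in any comparison.

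The linkage groups differed among themselves in how densely genes were packed. Up to the end of its last gene, linkage group f held 31.5 genes per megabase, c held 16.5 and a held 4.72. On single chromosomes from 1 to 6 the density ran from 11.7 (chromosome 3) to 15.6 (chromosome 6). The median distance from a gene to the next was 7371 bases on f, 12317 on c and 32094 on a, and 11738 over chromosomes 1 to 6. Both f and c thus lay above every large chromosome in density, and a below. In spacing f alone lay below them all, the lowest median of a large chromosome being 10196 bases (chromosome 2). Tight packing was not particular to f, as linkage group b held 21.6 genes per megabase at a median distance of 4938 bases. On h, with 4 genes over 0.231 megabases (17.3 per megabase), density says little. The same holds for d, with 3 genes over 1.08 megabases (2.79), and g, with 2 over 0.339 (5.90). Densities count all genes of the table, including the many of c with little or no counted RNA described below.

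Expression levels were computed as TPM, counts per base of exon scaled to a fixed sum per library, and averaged over the libraries of each tissue. The median gene of the linkage groups had a mean of 3.79 TPM over the 7 tissues, against 6.74 TPM on chromosomes 1 to 6. That value lay inside the range of the single large chromosomes, from 1.77 TPM on chromosome 3 to 9.98 TPM on chromosome 6. By tissue, the median of the linkage groups and of chromosomes 1 to 6 was 1.17 and 3.43 TPM in brain, 1.25 and 3.13 in eye, and 1.32 and 1.96 in dorsal skin. In testes it was 0.660 and 2.01 TPM, in ovary 0.719 and 2.22, in ventral skin 0.774 and 1.42, and in liver 0.468 and 0.636. In each of the 142 libraries the median over the linkage groups was the lower, with a ratio of 0.190 to 0.901.

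The low median came from linkage group c. There the median gene stood at 0.118 TPM, while on f it stood at 10.9 TPM and on a at 7.76 TPM. Without c, the ratio of the median of the linkage groups to that of chromosomes 1 to 6 was 1.49 in place of 0.562, an alternative chosen after seeing the data. Among genes that reached a mean of 1 TPM in at least 1 tissue the difference was small, with a median of 18.3 TPM for 208 genes of the linkage groups and 19.3 TPM for 9239 of chromosomes 1 to 6. On this scale the medians were 19.0 TPM on c (67 genes), 18.1 TPM on f (106 genes) and 12.0 TPM on a (26 genes), and single large chromosomes ran from 17.8 to 21.6 TPM. What set c apart was the number of its genes below 1 TPM in every tissue, not the level of the others.

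Of the 332 genes, 118 (35.5%) reached 1 TPM in all 7 tissues, 90 (27.1%) in 1 to 6 tissues and 124 (37.3%) in none. On chromosomes 1 to 6 the shares were 40.4%, 28.0% and 31.6%. Linkage group c had 39 genes in all 7 tissues and 89 (57.1%) in none, while f had 61 (45.5%) in all 7 and 28 (20.9%) in none. On a, 11 of 33 genes reached 1 TPM in all 7 tissues and 7 in none, and the 6 genes of g and h reached it in all 7. The share of genes in no tissue was at most 41.7% on a single large chromosome (chromosome 3) and at least 24.6% (chromosome 6), so c lay above and f below that range. An index of tissue restriction, tau, which is 0 for even expression and 1 for expression in a single tissue, had a median of 0.546 over 311 genes of the linkage groups with any count and 0.553 on chromosomes 1 to 6. Among genes that reached 1 TPM in a tissue the order was reversed, at 0.452 and 0.437.

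**Figure D1:**
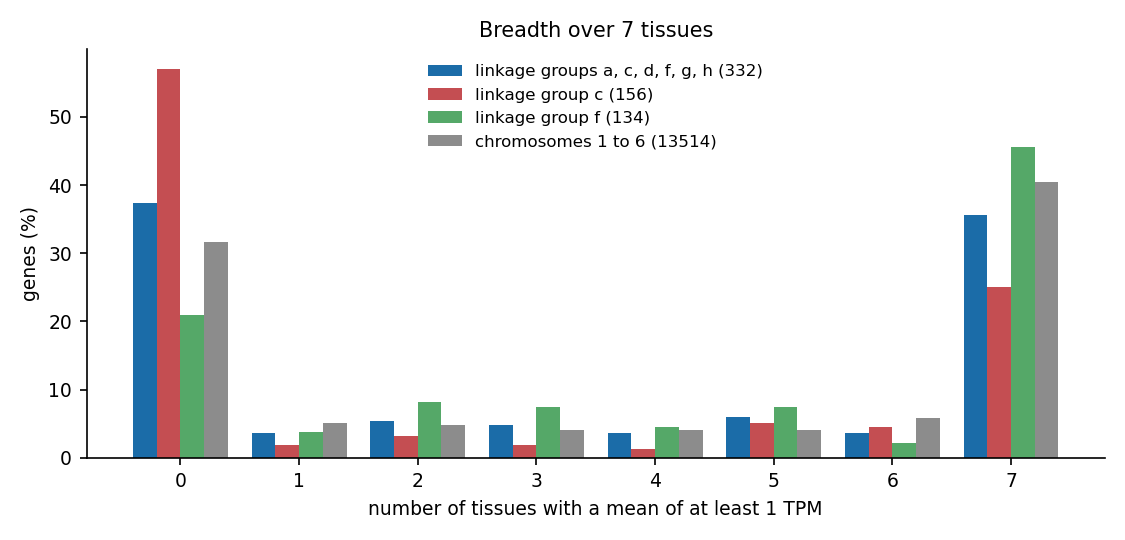
Share of genes (percent, vertical) by the number of tissues in which the mean reached 1 TPM (horizontal), for all 332 genes of the linkage groups, for linkage groups c and f alone, and for chromosomes 1 to 6. The bar for 0 tissues is highest for c (57.1%) and lowest for f (20.9%), and the bar for 7 tissues is lowest for c and highest for f.

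Many of the 89 genes of linkage group c that stayed below 1 TPM in all 7 tissues were neighbours. They formed 20 runs, with a lone gene counted as a run. The 5 runs of 9 or more genes held 65 of the 156 genes of c (41.7%). The limit of 9 was not set in advance and equals the length of the shortest of these 5, which may widen the contrast with chromosomes 1 to 6. The runs include the IDs of c that share an interval with another ID, described below. The longest run was of 17 genes, from 3992343 to 4830784, in which the highest mean in any tissue was 0.558 TPM. Runs of 15 genes (7462040 to 8405569) and of 12 genes (8495338 to 9363209) filled most of the far end of the group, and 12 more genes lay near its start (46856 to 307321). In the run of 15, 14 genes had 1 or 2 exons. The longest run was of 5 genes on f (582917 to 617696) and of 2 on a. Chromosomes 1 to 6 held 41 runs of 9 or more, of up to 24 genes, with 3.88% of their genes in them. By chromosome this share ran from 0.950% (chromosome 6) to 9.83% (chromosome 3). Chromosome 3 held 17 such runs, the longest of 23 genes, so runs longer than those of c were found there too.

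**Figure D2:**
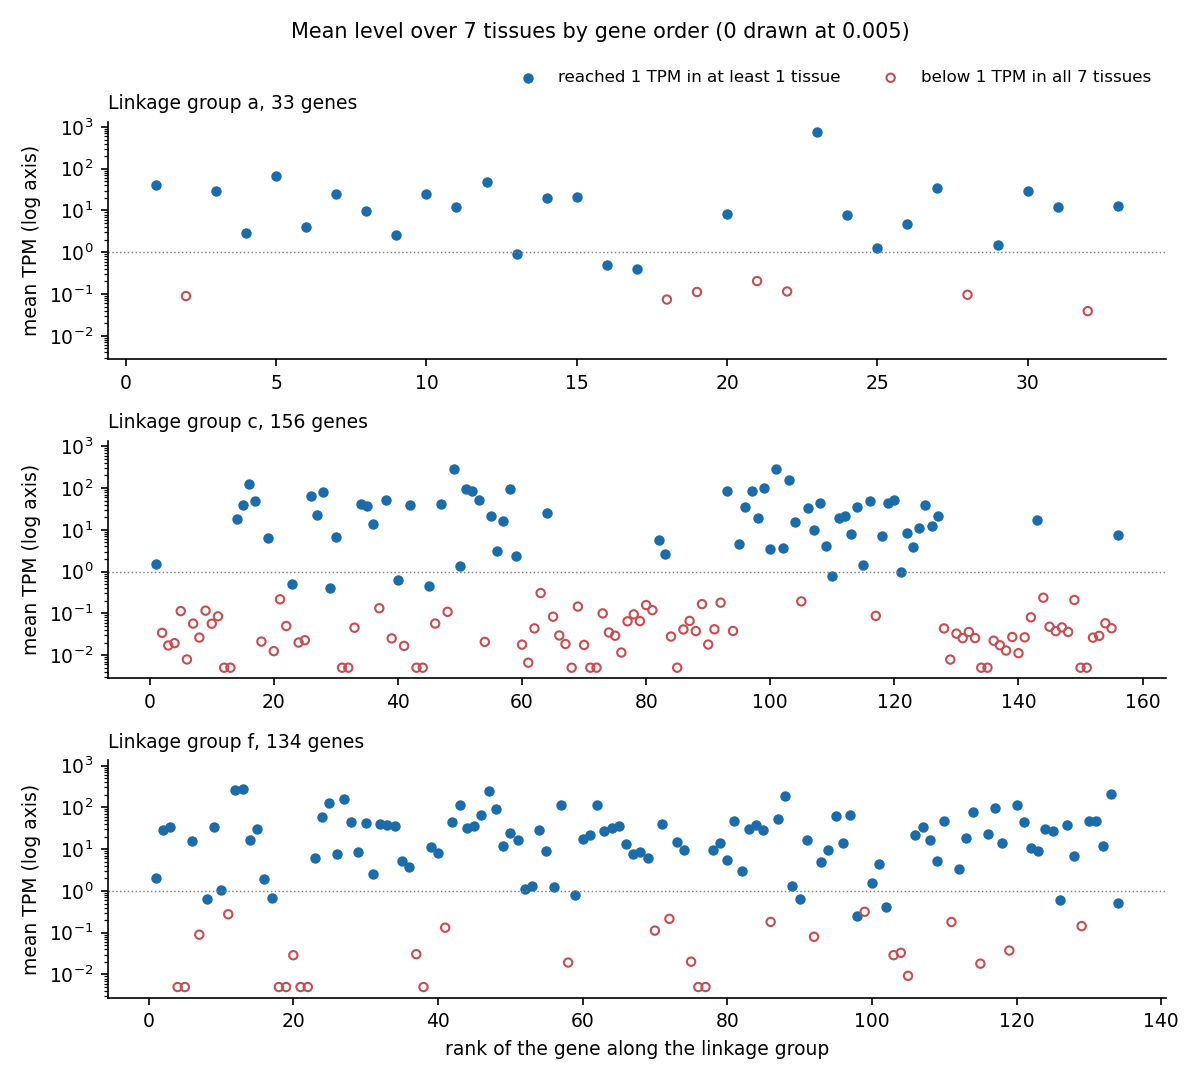
Mean TPM over 7 tissues (vertical, log axis, 0 drawn at the bottom) of each gene of linkage groups a, c and f against its rank along the group (horizontal). Filled points reached 1 TPM in at least 1 tissue and open points did not. On c the open points form runs in the middle and at the far end, where 2 runs of 15 and 12 genes lie, while on f they are scattered.

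Genes with few exons more often stayed below 1 TPM in both sets of genes. Among genes of a single exon, 55 of 73 (75.3%) in the linkage groups and 77.3% on chromosomes 1 to 6 stayed below 1 TPM in every tissue. Among genes of 10 or more exons these shares were 1.43% (1 of 70) and 0.741%. Genes of 2 exons made up 22.0% of the linkage groups and 14.9% of chromosomes 1 to 6. The share was 32.1% on c, but 13.4% on f and 12.1% on a. Of the genes of 2 exons 71.2% stayed below 1 TPM in every tissue in the linkage groups, against 60.1% on chromosomes 1 to 6. On c, 50 genes had 2 exons and 44 of them (88.0%) stayed below 1 TPM, while on f 6 of 18 (33.3%) did. Of the c genes with 3 or 4 exons 59.1% did (13 of 22), against 0 of 15 on f and 22.6% on chromosomes 1 to 6.

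Some gene IDs of the table share a position. In the linkage groups, 20 IDs had the same interval and strand as another ID, 12 of them on c and 8 on f, and all 20 had 0 counts in the 142 libraries. They made up 20 of the 21 genes of the groups with no count at all. On chromosomes 1 to 6, 658 IDs (4.87%) shared an interval, all with 0 counts. Among genes with an interval of their own, 33.3% in the linkage groups, 53.5% on c and 28.1% on chromosomes 1 to 6 stayed below 1 TPM in all tissues. How reads were counted where genes overlap is not given in the sources used here.

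Gene span, the distance from the first to the last exon base, had a median of 10087 bases in the linkage groups and 12322 on chromosomes 1 to 6, just below the lowest single chromosome (chromosome 3, 10174). Among genes that reached 1 TPM in a tissue the gap was wider. The median span was 14065 bases for 208 genes of the linkage groups and 21426 for chromosomes 1 to 6, whose lowest single median was 18245 (chromosome 2). Linkage group f accounted for it, with 12222 bases, while c had 23517 and a had 24506. Short spans were not particular to f, as the median was 9592 bases on linkage group b (62 genes) and 11776 on scaffolds (9452 genes). Of all f genes 2.24% were longer than 100 kilobases, against 8.68% on chromosomes 1 to 6. In expressed genes the median exon length was 1755 bases in the linkage groups and 1744 on chromosomes 1 to 6. By group it was 1496 bases on f, 1894 on c and 1902 on a, so f was shorter here too, though less so than in span. Exons of expressed genes filled a median of 11.1% of the span in the linkage groups (12.9% on f and 8.68% on c), against 8.78% on chromosomes 1 to 6.

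Among genes of 5 or more exons those of f were the shorter at like exon number. With 5 to 9 exons the median span was 13086 bases on f (51 genes), 17605 on c (14 genes) and 17237 on chromosomes 1 to 6. With 10 or more exons it was 25817 bases on f (24 genes), 42246 on c (32 genes) and 47102 on chromosomes 1 to 6. With 1 exon the medians were 1635 bases on f, 1635 on c and 1545 on chromosomes 1 to 6. With 2 exons they were 2612 on f, 9384 on c and 5602 on chromosomes 1 to 6, and with 3 or 4 exons 6306, 9293 and 8200 in the same order. These are descriptions of the annotation, to which no test was applied.

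**Figure D3:**
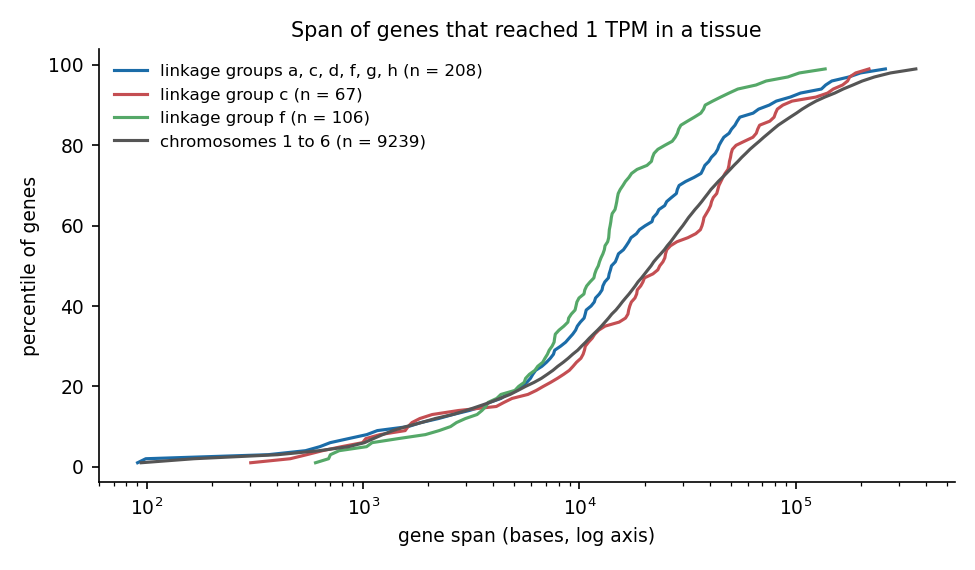
Cumulative share of genes (percentile, vertical) by gene span in bases (horizontal, log axis), for genes that reached 1 TPM in a tissue. The curve of linkage group f lies to the left of the others in its upper part, with a median of 12222 bases, while the curve of c follows that of chromosomes 1 to 6.

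Tissue-enriched genes were taken as those with a mean of at least 5 CPM, library-scaled counts with no division by length, and at least 8-fold above every other tissue, both skins as a single tissue. They numbered 29 of 332 (8.73%) in the linkage groups, 8.27% on chromosomes 1 to 6 and 8.86% over all genes. Of the 29, 10 were for testes, 6 each for ovary and skin, 4 for liver, 3 for eye and 0 for brain. These were 3.01%, 1.81%, 1.81%, 1.2%, 0.904% and 0% of the 332. Over all genes the shares were 3.72%, 1.45%, 0.933%, 1.29%, 0.778% and 0.687% in the same order. On f 18 genes (13.4%) were tissue-enriched, and on c 6 (3.85%). All 4 liver-enriched genes lay on f within 256 kilobases, between 3037257 and 3293124, among 15 genes. Their means in liver were 61.4, 392, 440 and 95.9 TPM in order of position. The 3 ovary-enriched genes of c lay near each other, starting at 3441782, 3588848 and 3732991, with 640, 81.6 and 145 TPM in ovary. Of the testes-enriched genes, a pair of neighbours on f, starting at 208974 and 231601, stood at 1835 and 1939 TPM in testes, and another at 2208199 on f stood at 774 TPM.

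A few genes carried much of the RNA of the linkage groups. All 332 together took between 0.441% (a dorsal skin library) and 1.12% (a testes library) of a library's TPM, with means of 1.07% ± 0.0279 in testes (SD, n = 12), 0.999% ± 0.0417 in ovary (n = 12), 0.879% ± 0.0202 in brain (n = 24) and 0.695% ± 0.114 in liver (n = 24). The 5 highest genes held 53.2% of it in testes and 45.2% in liver, against 24.4% in ventral skin.

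The gene of highest mean on a (3019773 to 3025111, 8 exons, minus strand) was the highest of all, with a mean of 739 TPM over the tissues. Its lowest, median and highest library values were 1287, 2166 and 2350 TPM in ovary, 1141, 1276 and 1459 in brain, and 504, 850 and 1288 in eye. They were 339, 361 and 384 TPM in testes, 65.2, 155 and 742 in dorsal skin, 37.8, 125 and 988 in ventral skin, and 25.8, 92.7 and 462 in liver. Ovary and brain were thus the highest, and the skin and liver libraries overlapped. The highest gene of c (5730711 to 5742580, 5 exons) was a liver gene by level, at 1290 ± 274 TPM in liver (SD, n = 24), with ovary next at 261 ± 55.0 TPM (n = 12). The highest gene of h (108530 to 153805, 19 exons) stood at 804 ± 81.9 TPM in brain and 352 ± 84.0 in eye (n = 24 each), and at 10.3 ± 2.99 TPM in liver. On g the highest gene (296946 to 339105) stood at 46.8 ± 13.9 TPM in liver and 31.7 ± 6.91 in eye (n = 24 each), and on d (12327 to 18450) at 75.3 ± 5.82 TPM in brain (n = 24) and 65.0 ± 8.55 in testes (n = 12). The highest gene of f, described below with the sex comparison, was the testes gene at 231601.

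Females were compared with males in the 5 tissues both sexes share, with edgeR fits of all genes of a tissue. Between 173 (liver) and 199 (dorsal skin) of the 332 genes had enough counts to be tested, and 215 were tested in at least 1 of the 5 tissues. With testes and ovary included, 109 were tested in none of the 7 tissues. The autosomal linkage groups showed no shift between the sexes like that of linkage group b. Their median log2 ratio of female to male was -0.07 in liver, -0.05 in ventral and -0.07 in dorsal skin, 0.02 in eye and 0.01 in brain. The medians of chromosomes 1 to 6 were -0.05, -0.03, -0.03, -0.00 and 0.00 in the same order, and those of linkage group b 0.13, 0.24, 0.27, 0.27 and 0.34. In liver the single large chromosomes ran from -0.08 to -0.02, so the linkage groups lay among them, and in the other tissues they lay just outside the narrow range of these (-0.04 to -0.01 in dorsal skin). The 17 genes of a tested in liver had a median of -0.39 and the 21 tested in dorsal skin one of -0.23, the widest of the 3 larger groups. The difference between a and the other groups was not tested.

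**Figure D4:**
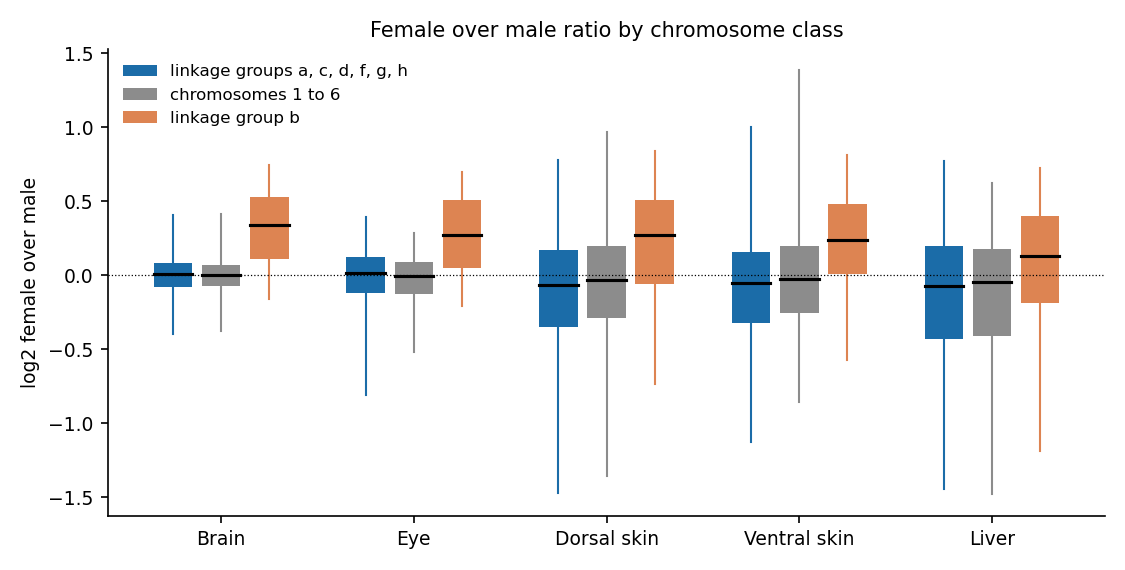
Log2 ratio of female to male (vertical) in 5 tissues (horizontal) for tested genes of linkage groups a, c, d, f, g and h, of chromosomes 1 to 6 and of linkage group b. Boxes span the quartiles, black bars are medians and thin lines run from the 5th to the 95th percentile over genes. The medians of the first 2 sets lie near 0 in each tissue, and those of linkage group b between 0.13 and 0.34.

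At an adjusted p under 0.05 (edgeR's quasi-likelihood test, Benjamini-Hochberg over all genes tested in the tissue), 1 gene of the linkage groups was higher and 7 were lower in female brain, of 190 tested. Over all genes tested in brain, 1.22% were higher and 1.26% lower. In eye 1 was higher and 3 lower of 178 (background 1.31% and 1.42%), and in dorsal skin 1 was higher and 6 lower of 199 (1.22% and 2.68%). In liver 9 were higher and 15 lower of 173 (6.17% and 7.4%), or 13.9% in all beside 13.6% on chromosomes 1 to 6. In ventral skin 0 of 194 were called (background 0.205%), with 23 at an unadjusted p under 0.05 (13% of all genes), and DESeq2 called 3 (2.3% of all genes). In brain 25 had an unadjusted p under 0.05 (13.2%, beside 13.3% of all genes), and DESeq2 called 7 of 183 (3.83%, beside 3.39%). The 8 edgeR calls there were 4.21% of the genes tested, beside 1.54% on chromosomes 1 to 6. Of them 6 lay on f, which also held 79 of the 171 linkage-group genes with a mean of 1 TPM or more in brain. Those 171 are not the same set as the 190 tested, whose share on f is not given. Altogether 33 of the 215 genes tested in at least 1 of the 5 tissues were called in at least 1 (15.3%), where 14.9% of all genes were. By group these were 20 of 108 on f, 7 of 73 on c, 3 of 25 on a, 2 of 4 on h and 1 of 2 on g. Of the 33, 5 were called in 2 or more tissues, a count for which the share over all genes is not given.

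The genes lower in females in the most tissues lay on f. ENSACAG00000023817 (2208199 to 2211755, plus strand) was lower in females in brain, eye, dorsal skin and liver. In brain its lowest, median and highest values were 0, 0.0716 and 0.290 TPM in females and 0.288, 0.957 and 2.34 TPM in males (12 libraries each), a log2 ratio of -3.27 ± 0.45 (SE, adjusted p = 2.42e-05, edgeR). The SE of a log2 ratio, here and below, is its size over the square root of the test's F. It is approximate, and least certain where counts are few. All but 1 of the female brain libraries lay below every male one. The log2 ratio was -1.43 ± 0.31 in eye (adjusted p = 0.0101), -3.47 ± 0.51 in dorsal skin (adjusted p = 0.00155) and -2.81 ± 0.49 in liver (adjusted p = 4.31e-04). In ventral skin it was -0.27 ± 0.44 and did not pass (adjusted p = 0.846), and the sex difference differed between tissues (adjusted p = 1.71e-04, edgeR, 14.8% of all genes called). That fit treated libraries of different tissues as independent, although each animal gave several.

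ENSACAG00000028902 (231601 to 245563, plus strand) was lower in females in brain, dorsal skin and liver. Its values in brain were 0, 0.133 and 0.561 TPM in females and 1.12, 3.10 and 5.40 TPM in males, with no overlap (log2 ratio -4.33 ± 0.43, adjusted p = 1.27e-07, edgeR). In liver they were 0, 0 and 0.763 TPM in females, 7 of which had no count, and 0.864, 2.05 and 20.6 TPM in males (log2 ratio -4.52 ± 0.65, adjusted p = 6.94e-05). In dorsal skin they were 0.126, 0.675 and 2.31 TPM in 12 females and 1.55, 3.77 and 74.2 TPM in 11 males (log2 ratio -3.57 ± 0.65, adjusted p = 0.00277), and the groups overlapped by 1 female. In eye the log2 ratio of -1.84 ± 0.51 did not pass (adjusted p = 0.0544). Its neighbour starting at 208974, singled out after its values were seen, followed the same pattern. Its values in brain were 0, 0 and 0.240 TPM in females and 0.476, 2.91 and 5.32 TPM in males, from 3 counts in all 12 females and 293 in all 12 males (log2 ratio -6.06 ± 0.48, adjusted p = 1.88e-09, edgeR). With 3 counts in females the size of this ratio is uncertain beyond that SE.

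**Figure D5:**
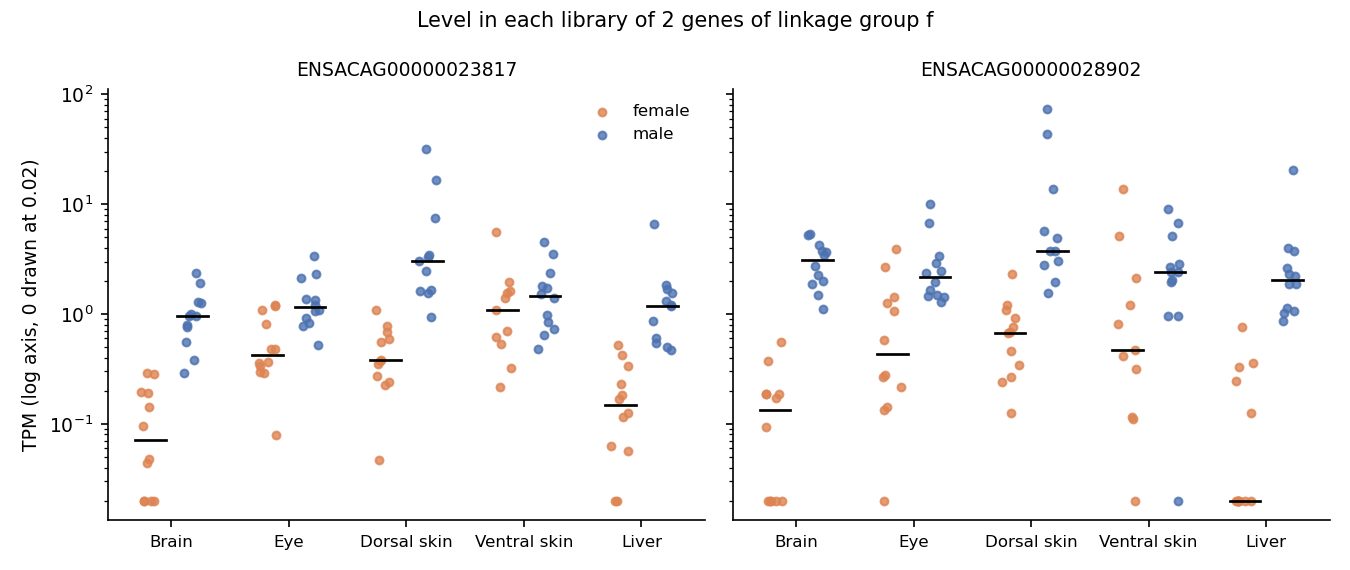
TPM (vertical, log axis, 0 drawn at the bottom) in each female and male library of 5 tissues (horizontal) for ENSACAG00000023817 and ENSACAG00000028902 of linkage group f. Black bars are medians. The female points lie below the male ones in brain, dorsal skin and liver with at most 1 exception, and the sexes overlap widely in ventral skin.

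These 3 genes are testes-enriched, at 774 to 1939 TPM in testes against medians of 0.957 to 4.62 TPM in male brain, dorsal skin and liver. Other testes-enriched genes were also called lower in females, a minority of those tested in each tissue. Of the testes-enriched genes of all chromosomes, 266 of 580 tested in liver, 296 of 806 in dorsal and 2 of 737 in ventral skin, 85 of 552 in eye and 120 of 648 in brain were lower in females. Over all genes tested the share lower was 7.4% in liver, 2.68% in dorsal skin, 1.42% in eye and 1.26% in brain. In ventral skin 3 of all genes were. The share of counts in testes-enriched genes was 0.519% to 0.563% in female brain libraries and 0.569% to 0.623% in male ones. In eye it was 0.407% to 0.488% in females and 0.421% to 0.540% in males, and the sexes overlapped. In liver they overlapped too, at 0.180% to 0.237% in females (median 0.195%) and 0.174% to 0.635% in males (median 0.215%), highest in ALAN male 1 and at most 0.279% in the other males. In dorsal skin it was 0.191% to 0.471% in females and 0.327% to 1.88% in males, highest in Midday male 4, which also held the highest values of both named genes there. Without that library the log2 ratio in dorsal skin was -2.85 for ENSACAG00000023817 and -2.79 for ENSACAG00000028902, both still called. Counts of the genes at 208974 and 2208199 per count of ENSACAG00000028902 were 0.731 and 0.656 in male brain, 0.846 and 0.911 in male dorsal skin, 0.812 and 0.863 in male liver, 0.669 and 0.916 in male eye, and 0.805 and 1.07 in male ventral skin, against 0.716 and 0.767 in testes. Together the 3 genes held 0.0706% of the counts of testes-enriched genes in male brain, 0.103% in male eye, 0.415% in male dorsal and 0.178% in male ventral skin and 0.212% in male liver, against 0.949% in testes. The part of testes RNA in these calls was not tested. Of the genes of the linkage groups called lower in females, 3 of 7 in brain, 1 of 3 in eye, 3 of 6 in dorsal skin and 4 of 15 in liver were testes-enriched. Over all genes called lower in females these were 120 of 216 (55.6%) in brain, 85 of 233 (36.5%) in eye, 296 of 481 (61.5%) in dorsal skin and 266 of 1158 (23%) in liver.

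A further f gene, starting at 3279467, was lower in females in eye, dorsal skin and liver, and is liver-enriched. In liver its values were 18.8, 47.3 and 133 TPM in females and 68.3, 130 and 215 TPM in males (log2 ratio -1.19 ± 0.24, adjusted p = 0.00201, edgeR), with 9 of 12 females below every male. Its log2 ratio was -0.83 in eye and -1.09 in dorsal skin, from levels of a few TPM. The liver call held under all 29 alternatives, while those in eye and dorsal skin were lost under 21 of 30 and 8 of 29, with adjusted p of up to 0.0925 and 0.0723 (edgeR). It too was singled out after its values were seen.

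The 2 genes higher in females by the rule were liver calls of f that lie side by side. ENSACAG00000005055 (2965247 to 2973819, minus strand) had 0.343, 5.06 and 23.4 TPM in female livers and 0, 0.263 and 0.923 TPM in male livers, a log2 ratio of 4.36 ± 0.62 (adjusted p = 6.64e-05, edgeR). In brain and eye it had at most 2 counts over the 12 libraries of a sex. Of the 12 female livers 10 lay above every male one. ENSACAG00000005129 (2944184 to 2960223, plus strand) had 0.629, 1.33 and 4.20 TPM in female livers and 0.158, 0.403 and 0.712 TPM in male livers, a log2 ratio of 2.12 ± 0.32 (adjusted p = 1.08e-04, edgeR), and 11 females lay above every male. In dorsal skin, where its level was higher, its log2 ratio of -0.17 ± 0.79 did not pass. Its sex difference differed between tissues (adjusted p = 0.0368, edgeR), while that of ENSACAG00000005055 did not pass (adjusted p = 0.0726). Midnight female 3 held the highest liver value of both, and without it the log2 ratios were 3.84 and 1.83, both still called.

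In female brain the single gene called higher starts at 2323750 on f and is ovary-enriched. Its values were 0.535, 0.783 and 10.6 TPM in females and 0.0976, 0.390 and 0.826 TPM in males (log2 ratio 1.65, adjusted p = 0.0495, edgeR). Midnight female 4 held 1.86% of its brain counts in ovary-enriched genes, and the next female library 0.165%. Without that library the log2 ratio was 1.02 and was still called, but the call was lost under 18 of 29 alternatives, among them the replicate block (adjusted p = 0.0919, edgeR) and leaving out any Midnight male (adjusted p of 0.101 to 0.103). Without Midnight female 4, 10 genes of the linkage groups were called in brain in place of 8, and the share over all genes in that fit is not given.

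Night was compared with day in the Midnight and Midday groups of 7 tissues. In eye 2 genes of the linkage groups were higher and 8 lower at Midnight, of 178 tested, where 1.92% of all genes were higher and 2.45% lower. Of these 10 calls 8 lay on f, which also held 82 of the 175 linkage-group genes with a mean of 1 TPM or more in eye. Those 175 are not the same set as the 178 tested, whose share on f is not given. The lower genes included a liver-enriched one (3055045) and a skin-enriched one (3241101) of f, and over all genes 35 of the 404 lower in eye were liver-enriched and 9 skin-enriched. Liver-enriched genes held 0.212% to 0.339% of the counts of eye libraries at Midnight (median 0.280%) and 0.292% to 0.635% at Midday (median 0.380%). Skin-enriched genes held 0.139% to 0.230% at Midnight (median 0.169%) and 0.143% to 0.420% at Midday (median 0.235%). The part of liver or skin RNA in these calls was not tested. Without the 3 eye libraries that stood apart, all of the Midday group, 1 gene of the linkage groups was called. The share over all genes in that fit is not given. In liver 1 was higher and 3 lower of 173 (background 0.652% and 1.32%), and in brain 1 was higher and 1 lower of 190 (0.361% and 0.843%). In dorsal skin 0 of 199 (background 0.195%) and in ventral skin 0 of 194 (0.057%) were called, where 25 and 24 had an unadjusted p below 0.05 and DESeq2 called 8 and 1. Over all genes 10.9% and 11.2% had such a p and DESeq2 called 1.66% and 1.31%. In testes 0 of 182 and in ovary 0 of 176 were called by edgeR, as over all genes of both tissues (0%), where 7 and 7 had an unadjusted p below 0.05 (4.73% and 3.62% of all genes) and DESeq2 called 0 in each (0.123% and 0.324% of all genes).

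ENSACAG00000042527 of f (3128820 to 3141176, minus strand), 1 of the 4 liver-enriched genes, was higher at Midnight in liver. Its values were 122, 629 and 1317 TPM at Midnight and 95.0, 204 and 434 TPM at Midday (8 libraries each), a log2 ratio of 1.61 ± 0.35 (adjusted p = 0.0164, edgeR). In liver 7 of 8 Midnight libraries lay above every Midday one. In brain and eye, at far lower levels, its log2 ratios of -1.19 and -1.34 did not pass (adjusted p = 0.117 and 0.108, edgeR). ENSACAG00000021995 of c (3441782 to 3453175, minus strand), an ovary-enriched gene, was lower at Midnight in liver, with 0, 0.829 and 6.67 TPM at Midnight and 1.71, 6.24 and 46.8 TPM at Midday (log2 ratio -3.29 ± 0.76, adjusted p = 0.0240, edgeR). In ovary it stood at 632 ± 176 TPM at Midnight and 670 ± 194 TPM at Midday (SD, n = 4 each). The share of ovary-enriched genes in liver was 0.0818% to 0.171% at Midnight and 0.0796% to 0.134% at Midday, and its part in the call was not tested. Midday male 1 held the value of 46.8 TPM and was 1 of the libraries that stood apart, and without it the log2 ratio was -2.40 (adjusted p = 0.0452, edgeR). Without Midday female 3 or Midnight male 2 this call was lost (adjusted p = 0.0658 and 0.0655, edgeR).

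The gene on f starting at 3406656, singled out after its values were seen, was lower at Midnight in brain with no overlap between the groups. Its values were 0.712, 0.957 and 1.10 TPM at Midnight and 1.13, 1.86 and 2.98 TPM at Midday (log2 ratio -1.04 ± 0.21, adjusted p = 0.00944, edgeR), and the call held under all 29 alternatives. In eye the called gene of highest level among those lower at Midnight starts at 1917494 on f, with 6.70, 18.9 and 31.7 TPM at Midnight and 19.5, 27.3 and 64.2 TPM at Midday (log2 ratio -0.98 ± 0.28, adjusted p = 0.0445, edgeR). That call was lost under 19 of 30 alternatives, and without the libraries that stood apart the log2 ratio was -0.57 (adjusted p = 0.436, edgeR).

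A lit night was compared with a dark one in the ALAN and Midnight groups, which share the Midnight libraries with the comparison above. In ventral skin 3 genes of the linkage groups were higher and 2 lower under ALAN, of 194 tested (background 0.564% and 1.36%). In liver 1 was higher and 0 lower of 173 (0.217% and 0.141%). None was called in brain (background 0.0872%), eye (0.158%), dorsal skin (0.0223%), testes (0.43%) or ovary (0%) by edgeR. The unadjusted p was below 0.05 for 29, 13, 18, 23 and 30 genes in those tissues, in that order, against 10.8%, 10.4%, 11.6%, 12.5% and 16.2% of all genes. DESeq2 called 0, 1, 5, 7 and 3 of the linkage groups, against 0.431%, 0.847%, 2.13%, 3.31% and 2.15% of all genes.

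ENSACAG00000006545, at the end of d (1076895 to 1077242, minus strand), was higher under ALAN in ventral skin, with 5.55, 17.2 and 24.9 TPM under ALAN and 1.46, 6.55 and 8.86 TPM at Midnight (8 libraries each; log2 ratio 1.55 ± 0.36, adjusted p = 0.0298, edgeR). With the counting class as a term its log2 ratio was 1.90 (adjusted p = 0.0537, edgeR), and without the libraries that stood apart 1.54 (adjusted p = 0.0549). It also missed the threshold without Midnight male 1 (adjusted p = 0.0691, edgeR), ALAN male 1 (0.0508), ALAN male 3 (0.0616), ALAN male 4 (0.0580) or ALAN female 2 (0.0502). ENSACAG00000042527, the liver-enriched gene of f, was lower under ALAN in ventral skin, with 0.0828, 0.333 and 0.606 TPM under ALAN and 0.403, 1.68 and 23.6 TPM at Midnight (log2 ratio -3.84 ± 0.84, adjusted p = 0.0223, edgeR). Midnight female 4 held the highest value and also the highest share of liver-enriched genes in its group, 2.58% beside at most 0.689% in the other Midnight libraries and 0.324% to 0.551% under ALAN. Without it the log2 ratio was -3.13 and did not pass (adjusted p = 0.0629, edgeR). The call was also lost without ALAN female 3 (log2 ratio -3.75, adjusted p = 0.0501, edgeR) and with the counting class as a term (-3.29, adjusted p = 0.218). The part of liver RNA in it was not tested. In liver itself its values were 234, 417 and 700 TPM under ALAN and 122, 629 and 1317 TPM at Midnight, a log2 ratio of -0.77 ± 0.34 that did not pass (adjusted p = 0.308).

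The gene called in liver starts at 190224 on h and had 5.16, 5.80 and 10.8 TPM under ALAN and 2.17, 3.02 and 4.03 TPM at Midnight, with no overlap (log2 ratio 0.93 ± 0.19, adjusted p = 0.0315, edgeR). All 8 ALAN livers, and no Midnight liver, were of the low-share counting class, so class and light cannot be told apart for it. The call was lost under 7 of 29 alternatives, without Midnight male 1, 2 or 3, Midnight female 3 or ALAN male 2 among them (adjusted p of up to 0.0741, edgeR). In ventral skin the gene at 1917494 on f had 13.9, 34.5 and 78.8 TPM under ALAN and 8.66, 13.0 and 24.0 TPM at Midnight (log2 ratio 1.51 ± 0.38, adjusted p = 0.0423, edgeR), and 6 of 8 ALAN libraries lay above every Midnight one. That call was lost under 17 of 29 alternatives, and with a term for the counting class the log2 ratio was 1.12 (adjusted p = 0.408, edgeR). The gene starting at 5477591 on c, in 1 of the runs of genes below 1 TPM in all tissues, was higher under ALAN in ventral skin with no overlap, at 0.264, 0.457 and 0.836 TPM under ALAN and 0.0300, 0.0690 and 0.194 TPM at Midnight, from 87 and 27 counts in all (log2 ratio 2.21 ± 0.54, adjusted p = 0.0365, edgeR). That call was lost under 15 of 29 alternatives (adjusted p of up to 0.233, edgeR). The 3 genes were named after their values were seen.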

How the data were processed

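RNA-seq libraries of 7 tissues were deposited by the authors as 1 table of raw counts per gene with exon positions. Per the submitters' processing notes the tools were Trimmomatic, FastQC, STAR 2.7.11a, Subread and featureCounts. Their settings, strand among them, the build and the annotation were not stated in the sources used here. Reads of a gene and of an antisense or partly overlapping partner therefore cannot be told apart. IDs with the same interval and strand as another, 1098 over all genes, all had 0 counts. The RefSeq gene table used here (27148 rows) held 0 of the 26479 IDs, so genes go by ID or by position as deposited, and no sequence is shown. All sample columns were used (0 unused).

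TPM was computed from the counts and the deposited exon lengths. Per tissue, edgeR 4.0.16 (R 4.3.3; TMM scaling, genes kept by filterByExpr, robust quasi-likelihood test) was fitted to all libraries with terms for treatment and sex, and p-values were adjusted by Benjamini-Hochberg over all genes tested, at a threshold of 0.05. The SE given with an edgeR log2 ratio was not fitted but taken as its size over the square root of the F statistic. DESeq2 1.42.0 was an alternative. Others were another scaling, no filter, a replicate block, a term for the counting class, leaving out libraries that stood apart and leaving out each animal. Levels, breadth and span are descriptions without a test. Libraries stood apart when their median correlation lay more than 5 median absolute deviations from the median of their tissue. Tables were made with Python 3.11.15 and pandas 2.3.3. The fits were tested on simulated data.

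Genes named by ID are the 2 higher and 2 lower in females that were called in the most tissues, ties by the summed log2 change, at a mean of at least 1 CPM in a called tissue, and 1 in each direction for the treatment comparisons. Genes named by position are the highest on each linkage group or were chosen after their values were seen. The genes and lists were chosen with earlier results of these data known. Each library comes from a separate animal within its tissue, so p-values rest on the spread between animals. Total counts of 10257388 to 30952365 per library set the precision for low genes. Among the 15 libraries that stood apart, totals ran from 10257388 to 16304907 in the low-share counting class and from 20240586 to 30195919 in the high-share class. Totals by class over all libraries are not given.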

Additional observations from a re-analysis of the deposited data

Results flagged for a closer look

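In 9 of 81 groups of 4 to 8 libraries examined, 1 library lay far from the others of its group. The limit used gives about 1 in 20 by chance for independent groups of normally distributed values. Here some groups shared libraries and some values were 0, so the count of 9 cannot be judged against that rate. ENSACAG00000023817 stood at 31.8 TPM in the dorsal skin of Midday male 4, with 2.47 TPM in the next Midday male, and at 1.33 TPM in the liver of Midnight male 4, with 0.602 TPM in the next. ENSACAG00000028902 stood at 74.2 TPM in the same dorsal skin library, with 3.77 TPM in the next, and at 20.6 TPM in the liver of ALAN male 1, with 2.65 TPM in the next. In brain it stood at 0.561 TPM in ALAN female 2, the only ALAN female with a count, and at 0.376 TPM in Midday female 2, with 0.189 TPM in the next. ENSACAG00000042527 stood at 23.6 TPM in the ventral skin of Midnight female 4, with 4.17 TPM in the next. ENSACAG00000021995 stood at 6.67 TPM in the liver of Midnight female 1, with 2.28 TPM in the next. In that same liver library the linkage groups held 1.03% of TPM, with 0.745% in the next Midnight liver.

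The sex difference differed between tissues by the interaction test in edgeR for ENSACAG00000023817 (adjusted p = 1.71e-04), ENSACAG00000028902 (adjusted p = 0.00656) and ENSACAG00000005129 (adjusted p = 0.0368).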

How the results depend on the processing

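For sex DESeq2 called 38 genes of the linkage groups in liver (18.5% of all genes), 13 in dorsal (7.06%) and 3 in ventral skin (2.3%) and 9 in eye (5.44%). For Midnight against Midday it called 10 in liver (5.68%), 8 in dorsal (1.66%) and 1 in ventral skin (1.31%), 16 in eye (8.32%) and 6 in brain (2.22%). For ALAN against Midnight it called 4 in liver (2.15%), 5 in dorsal (2.13%) and 13 in ventral skin (5.81%), 1 in eye (0.847%), 3 in ovary (2.15%) and 7 in testes (3.31%). Without the filter on low counts edgeR called 1 for sex in eye, 6 for Midnight in eye, and 2 in ventral skin and 0 in liver for ALAN. With the counting class as a term it called 7 for sex in eye and 1 for ALAN in ventral skin. Without libraries that stood apart it called 1 each in eye and dorsal skin for Midnight. Another scaling moved none of the 24 counts and medians past these limits. The cause of these shifts was not tested. Shares over all genes are not given for the edgeR alternatives, so their counts cannot be read as particular to the linkage groups.

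Leaving out 1 animal at a time gave, for sex, 18 to 29 calls of the linkage groups in liver, 3 to 8 in dorsal skin, 1 to 9 in eye and 5 to 10 in brain. Shares over all genes in these fits are not given, so no range here can be read as particular to the linkage groups. For Midnight it gave 1 to 4 in brain, 0 to 1 in dorsal skin, 2 to 7 in liver and 4 (without Midnight male 1) to 22 (without Midday female 1) in eye. For ALAN it gave 0 to 2 in liver, 0 to 2 in testes and 1 to 8 in ventral skin. The median sex ratio of the linkage groups kept its sign in each tissue, except in brain without Midnight female 4 (-0.01).

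The replicate numbers name animals within a group and no label says that a number was shared between groups. Of 140 same-numbered pairs of libraries in different treatments, 35 had correlated deviations above 0.1. In ventral skin 13 of 22 did, with a median correlation of 0.191 for the same number and -0.04 for other numbers. In eye, testes and dorsal skin the same number had the lower median (-0.098, -0.048 and -0.026, against 0.032, 0.054 and 0.029). In liver both were -0.0013. In brain and ovary the same number was slightly higher (0.009 and 0.017, against -0.003 and -0.002). The share above 0.1 for other-numbered pairs is not given. A replicate block gave 4 calls of the linkage groups in brain and 6 in eye for Midnight, and 2 in ventral skin and 0 in liver for ALAN. Shares over all genes with the block are not given either. It gave 24 in liver for sex and changed no call of a gene named by ID. Among genes named by position it ended the calls at 2323750 (brain, sex), 3279467 (dorsal skin, sex), 190224 (liver, ALAN) and 1917494 (eye, Midnight, and ventral skin, ALAN).

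Among levels and structure, the ratio of median levels, as means over the 7 tissues, was 0.948 among genes that reached 1 TPM and 1.49 without c. The share of genes in all 7 tissues was 18.4% at a minimum of 5 TPM, 56.7% among genes that reached 1 TPM and 44.9% without c. On chromosomes 1 to 6 it was 59.1% among genes that reached 1 TPM and 40.4% among all genes. Without c the linkage groups thus had the higher share. The share at 5 TPM on chromosomes 1 to 6 is not given. The median span was 14065 bases among genes that reached 1 TPM and 14821 among genes of at least 2 exons, against 21426 and 21402 on chromosomes 1 to 6. Too few counts left 109 of the 332 genes untested in every tissue.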
